A study of Mus musculus with 2 samples.

Results

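The interferon gamma GTPases Gbp2, Gbp3, Gbp5, Gbp7, Irgm1, Igtp and Iigp1 and the transcription factors Irf1 and Irf8 were followed in single-cell RNA libraries of peritoneal macrophages. They were taken by gene symbol, and all 9 were found among 55450 features, of which 25984 had at least 1 unique molecular identifier (UMI). The data held 1 library of Ankrd22-/- mice, made with CRISPR/Cas9 and called knockout here, and 1 library of Ankrd22+/+ mice, called wild type. Both came from F4/80+ cells that had been sorted by flow cytometry from peritoneal fluid, with no treatment named, and were prepared with 10x Genomics 3' v3 chemistry. Age, sex, strain and the number of mice behind a library are not given in the sources used here. With 1 library per genotype no test was possible, every difference is one between these libraries, and intervals cover counting error only at 95%.

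The knockout library held 6706 barcodes and 110956482 UMIs, and the wild type library 6315 barcodes and 96869041 UMIs. After filters, 6036 knockout cells with a median of 16003.5 UMIs and 5946 wild type cells with a median of 14339 UMIs were kept, and the libraries shared 15 barcodes. Clusters were made without the 9 genes or the interferon lists and named from fixed markers. Of the knockout cells 5023 were large-macrophage-like, 459 small-macrophage-like, 515 cycling, 31 B-cell-like and 8 T-cell-like. Of the wild type cells 4914 were large-macrophage-like, 640 small-macrophage-like, 352 cycling, 38 B-cell-like and 2 T-cell-like. The targeted gene, Ankrd22, had 0 UMIs in both libraries, so it does not check the genotype labels. Large peritoneal macrophages are the resident cells of the cavity and depend on Gata6, while small ones derive from monocytes and carry MHC class II. The libraries hardly shared a cluster. Knockout large-macrophage-like cells lay mainly in clusters 1, 3, 4, 7 and 12, and those of the wild type in clusters 0, 2, 5 and 11. Knockout small-macrophage-like cells lay mainly in cluster 8, and wild type ones in cluster 6. A further 16 knockout cells with a median of 49034.5 UMIs formed cluster 15, which was kept in the large class. Levels are given in CPM, the UMIs of a gene per 1000000 UMIs of the class in that library. In the large class the 15 large-macrophage markers, with Wt1 at 0, summed to 19376 CPM in knockout cells, against 19498 CPM in wild type cells. Markers of small macrophages in the large class summed to 251 CPM in knockout cells, against 841 CPM in wild type cells. Those of monocytes summed to 581 CPM in knockout cells, against 307 CPM in wild type cells, with Ly6c2 at 0. Markers of T cells and of natural killer cells summed to at most 0.322 CPM there in either library. The part of these differences in the results below was not tested.

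Interferon gamma, made mainly by T cells and natural killer cells, binds a receptor of Ifngr1 and Ifngr2 and acts through the kinases JAK1 and JAK2 on genes with gamma-activated sites (GAS). IRF1 is induced early, and IRF1 and related factors bind interferon-stimulated response elements (ISRE). Guanylate-binding proteins (GBPs) are large GTPases that gather on the vacuoles of intracellular microbes and on bacteria, and immunity-related GTPases (IRGs) act on the same vacuoles. Among the IRGs of the mouse, Irgm1 and Igtp are regulators that sit on the cell's own membranes, and Iigp1 is an effector that loads onto the vacuole. IRF8 is a lineage factor of monocytes, macrophages, dendritic cells and B cells that interferon gamma also induces. Ifng itself had 0 UMIs in either library. With a floor of 3 counts its level may have been up to 0.0270 CPM among knockout barcodes and 0.0310 CPM among wild type barcodes.

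The promoters of 8 of the 9 genes, not of Iigp1, are in the RefSeq table for GRCm38.p6. They gave 11 windows of 250 bases before and 50 bases after the start. Each of the 8 genes held the letters of a GAS, of an ISRE or of both in its first window. The second windows of Gbp3, Irf1 and Irf8 held neither. The GAS was searched as TTCNNNGAA and the ISRE as GAAA, any 2 bases and GAAA, on both strands, with overlapping matches allowed. Of 32851 promoters of the same length, counted singly and not by gene, 8.30% held the GAS letters and 3.44% the ISRE letters. Matches are letters in a window and were not measured as binding. GAS letters stood in the windows of 5 of the 8 genes, ISRE letters in those of 6 and both in those of 3 (Gbp5, Gbp7 and Igtp). The 6 GTPases with a promoter in the table all had ISRE letters, whereas Irf1 and Irf8 had GAS letters alone. The stretches that hold the matches, read 5′ to 3′ on the gene's strand with the matched letters in capitals, are shown because GAS and ISRE are the elements through which interferon gamma is known to act. Whether they bear on the levels below was not tested.
Gbp2, chr3:142620584-142620633, plus strand: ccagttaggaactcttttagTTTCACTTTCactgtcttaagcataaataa
Gbp3, chr3:142559979-142560034, plus strand: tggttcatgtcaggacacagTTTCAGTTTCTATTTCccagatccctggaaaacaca
Gbp7, chr3:142530210-142530312, plus strand: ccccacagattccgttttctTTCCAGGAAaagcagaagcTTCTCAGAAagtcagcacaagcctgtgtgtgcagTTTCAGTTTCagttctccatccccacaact
Irgm1, chr11:48871415-48871470, minus strand: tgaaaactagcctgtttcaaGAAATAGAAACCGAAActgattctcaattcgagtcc
Igtp, chr11:58199491-58199551, plus strand: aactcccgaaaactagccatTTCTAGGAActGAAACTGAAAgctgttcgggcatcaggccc
Irf1, chr11:53769904-53769952, plus strand: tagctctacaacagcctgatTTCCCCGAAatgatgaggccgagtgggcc
Irf8, chr8:120736167-120736233, plus strand: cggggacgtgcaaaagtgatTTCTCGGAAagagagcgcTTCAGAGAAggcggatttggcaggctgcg
Gbp5 had 2 GAS matches and 1 ISRE match, spread over a longer stretch. In Gbp3 and in Irgm1 the capitals hold 2 ISRE matches that overlap.

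In the GENCODE release 21 annotation of GRCm38, the 4 GBP genes lie on chromosome 3, all on the plus strand: Gbp5 at 142493978 to 142522344, Gbp7 at 142530342 to 142550149, Gbp3 at 142560026 to 142573209 and Gbp2 at 142620602 to 142638008. On chromosome 11 lie Irgm1 (48861968 to 48871683, minus strand), Irf1 (53770014 to 53778374, plus strand) and Igtp (58199556 to 58207591, plus strand). Irf8 lies on chromosome 8 (120736358 to 120756694, plus strand). The gene model of Igtp overlaps Irgm2 on the same strand, which had 880 UMIs of its own in knockout barcodes and 607 UMIs in wild type barcodes, so that the split of reads between them is uncertain. Irf1 overlaps the antisense model Gm17334, with 14 UMIs in knockout and 13 UMIs in wild type barcodes. Of the 60-base windows in the last 500 bases of the members' transcripts, 2.58% of those of Gbp3 also occur in Gbp7 transcripts, and at most 1.80% of those of another member occur in any other gene.

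In large-macrophage-like cells most of the GTPases were higher and both IRF factors lower in the knockout library. Of the 9 genes, 5 (Gbp2, Gbp3, Gbp7, Irgm1 and Iigp1) stood higher by 1.5-fold or more, as did 11.8% of the 8441 genes with a mean of at least 5 CPM. Irf8 alone stood lower by 1.5-fold or more, as did 3.33% of those genes. The median log2 ratio, knockout over wild type with 1 CPM added to each, was 0.61 over the 9 genes and 0.20 over all 8441. With scaling factors from TMM or from the median of ratios, which lower every ratio by about 0.27, 3 of the 9 were higher and 2 lower. The share of higher genes among all those past 1.5-fold was 34.2% with TMM, against 78.0% with CPM. Shares of all measured genes under these scalings are not given here, so the counts of 3 and 2 have no such share beside them.

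**Figure D1:**
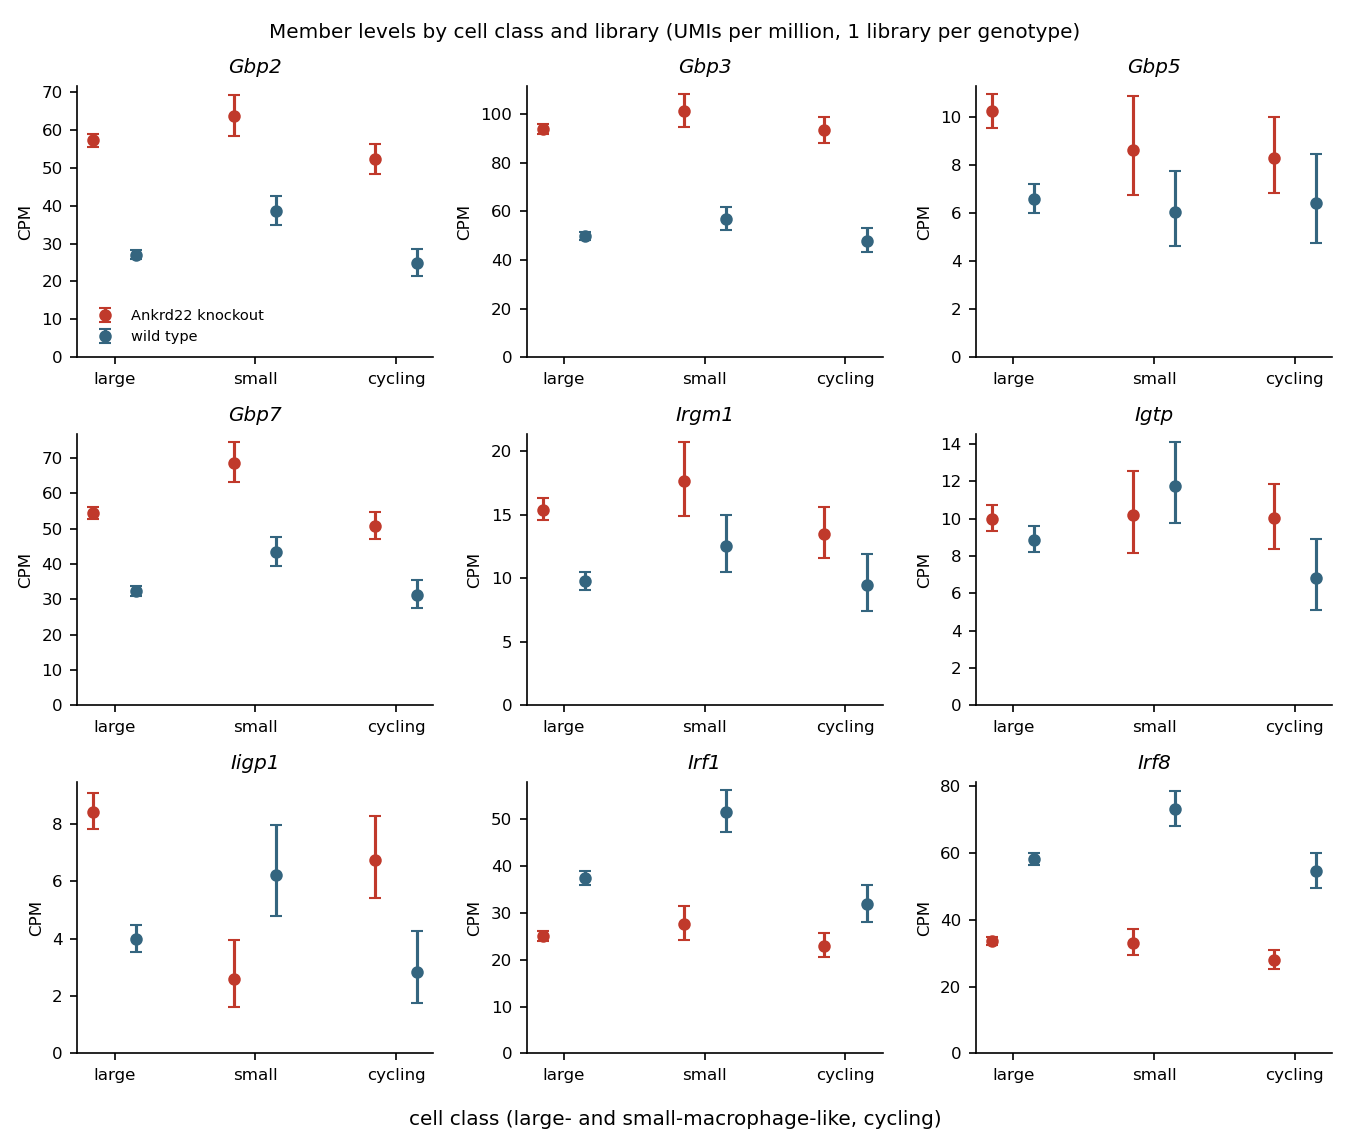
Level of each member in CPM of summed UMIs (y axes, starting at 0) in large-macrophage-like, small-macrophage-like and cycling cells (x axes), for the knockout library (red, left of each pair) and the wild type library (blue, right). Bars are exact Poisson intervals for counting error. Gbp2, Gbp3, Gbp7 and Irgm1 stand higher in the knockout library in all 3 classes, Irf1 and Irf8 stand lower in all 3, and Iigp1 is higher in large and lower in small cells.

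Among the GBPs, Gbp2, which acts at vacuoles of Toxoplasma and at cytosolic bacteria, had 57.2 CPM (55.5 to 58.9) in knockout cells, against 27.0 CPM (25.8 to 28.3) in wild type cells. Its log2 ratio of 1.05 (0.98 to 1.13) was above those of 98.1% of the measured genes. Gbp3 had 93.8 CPM in knockout cells, against 50.04 CPM in wild type cells, with a log2 ratio of 0.89 (0.84 to 0.95). Here 3' UMIs count molecules and are not scaled by length, and on that scale Gbp3 had more UMIs than the other 6 GTPases in each library. Gbp7, which also guards against intracellular microbes, had 54.4 CPM in knockout cells, against 32.3 CPM in wild type cells, with a log2 ratio of 0.73 (0.66 to 0.80). Gbp5, known for promoting assembly of the NLRP3 inflammasome, had 10.2 CPM in knockout cells, against 6.59 CPM in wild type cells. Its log2 ratio of 0.57 (0.42 to 0.71) lay just under 1.5-fold.

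Of the IRGs, the regulator Irgm1 had 15.4 CPM in knockout cells, against 9.75 CPM in wild type cells, with a log2 ratio of 0.61 (0.49 to 0.73). The second regulator, Igtp, was nearly level, with 10.01 CPM in knockout cells and 8.87 CPM in wild type cells. Its log2 ratio of 0.16 (0.02 to 0.30) turned to -0.10 with TMM or median-of-ratios scaling. The effector Iigp1 had 8.42 CPM (7.80 to 9.08) in knockout cells, against 3.98 CPM (3.53 to 4.47) in wild type cells, with a log2 ratio of 0.92 (0.75 to 1.09). Of these 3 genes Iigp1 thus had the highest ratio and, in both libraries, the lowest level.

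Irf1, which binds interferon-stimulated elements and also answers NF-kappa-B signals, had 24.99 CPM (23.9 to 26.1) in knockout cells, against 37.4 CPM (36.0 to 38.8) in wild type cells. Its log2 ratio of -0.56 (-0.64 to -0.48) lay just short of 1.5-fold. Irf8 had 33.6 CPM (32.3 to 34.9) in knockout cells, against 58.0 CPM (56.3 to 59.8) in wild type cells. Its log2 ratio was -0.77 (-0.84 to -0.70), and 2.40% of the measured genes lay below it. Both factors were lower under each of 15 other settings, Irf8 by at least 1.5-fold in 14 of them and Irf1 in 5.

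**Figure D2:**
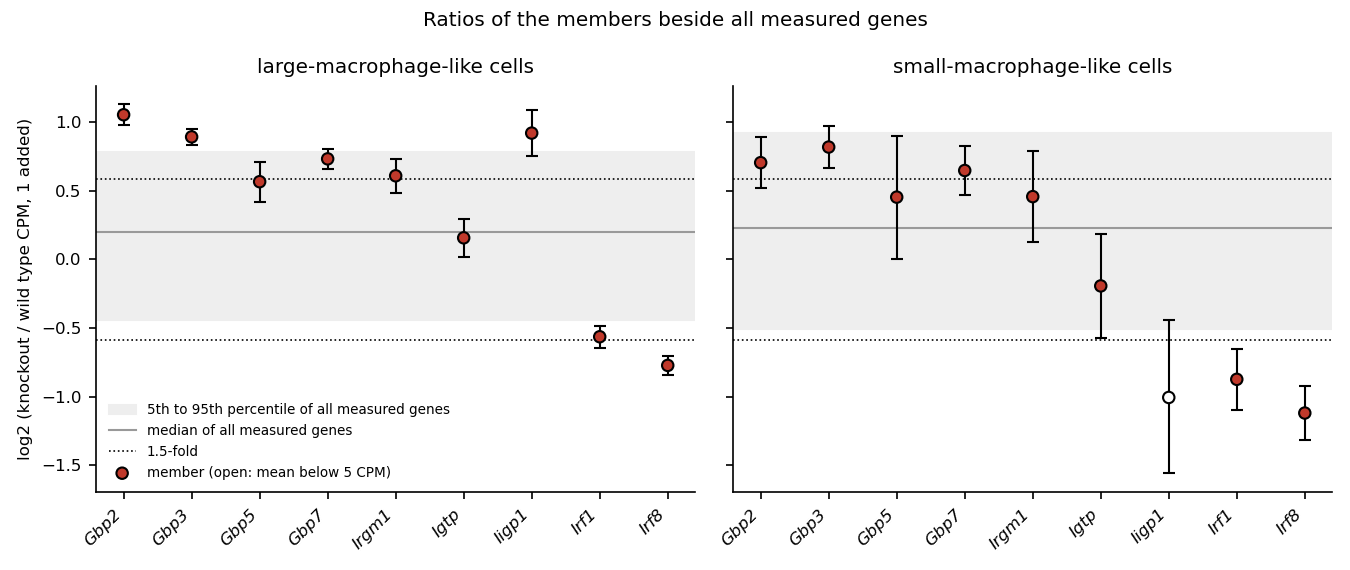
Log2 ratio of knockout over wild type levels after adding 1 CPM (y axis) for each member (x axis) in large-macrophage-like and small-macrophage-like cells, with 95% intervals for counting error; dotted lines mark 1.5-fold, the grey line the median of all measured genes (0.20 and 0.23) and the grey band their 5th to 95th percentile. Gbp2, Gbp3 and Iigp1 lie above the band in large cells, Irf1 and Irf8 lie below it in both classes, and Iigp1 lies below it in small cells.

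The shares of cells with a UMI went the same way as the levels. Each cell was thinned to 5000 UMIs, which left 4906 knockout and 4622 wild type large-macrophage-like cells. Gbp3 was seen in 35.6% of knockout cells, against 21.4% of wild type cells. Gbp2 was seen in 21.5% of knockout cells, against 11.4% of wild type cells, and Gbp7 in 21.8% of knockout cells, against 13.7% of wild type cells. The rarer GTPases were seen in few cells of either library. Irgm1, Igtp, Gbp5 and Iigp1 were seen in 6.71%, 4.91%, 4.57% and 2.94% of knockout cells, and in 4.82%, 4.28%, 2.90% and 1.62% of wild type cells. Irf8 was seen in 14.5% of knockout cells, against 22.8% of wild type cells, and Irf1 in 10.9% of knockout cells, against 14.2% of wild type cells. No class of this sort is known to lack these genes. B-cell-like cells, a lymphoid type in which Irf8 is also active, had Irf8 at 121 CPM in the knockout, against 105 CPM in the wild type. They had no UMI of Iigp1 in either library. These were 31 knockout cells with a median of 3772 UMIs and 38 wild type cells with a median of 5226 UMIs. For Iigp1 the counting intervals of these cells ended at 24.8 CPM (knockout) and 14.4 CPM (wild type). Both ends lay above the Iigp1 level of large-macrophage-like cells of the same library. The lack of UMIs thus cannot tell absence of Iigp1 from a level like that of the macrophages.

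Small-macrophage-like cells gave a like split for the GBPs and the factors. Of the 9 genes, 8 reached a mean of 5 CPM, and 3 of them (Gbp2, Gbp3 and Gbp7) stood higher by 1.5-fold or more in the knockout library, as did 16.4% of 8624 genes. Both Irf1 and Irf8 stood lower by 1.5-fold or more, as did 4.13% of the genes. The median log2 ratio was 0.46 over the 8 genes and 0.23 over all. With TMM or median-of-ratios scaling 0 of the 8 were higher by 1.5-fold, while both factors were still lower by it. The shares of all genes under these scalings are not given here. Markers of monocytes in the small class summed to 1836 CPM in knockout cells, against 776 CPM in wild type cells, and those of conventional dendritic cells 1 to 133 CPM in knockout cells, against 78.9 CPM in wild type cells, with Clec9a at 0. Their part in the ratios of these genes was not tested.

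In these cells Gbp2 had 63.5 CPM in the knockout, against 38.6 CPM in the wild type, with a log2 ratio of 0.71 (0.52 to 0.89). Gbp3 had 101 CPM in the knockout, against 57.0 CPM in the wild type, with a log2 ratio of 0.82 (0.67 to 0.97). Gbp7 had 68.6 CPM in the knockout, against 43.4 CPM in the wild type, with a log2 ratio of 0.65 (0.47 to 0.83). As in large cells, Gbp3 stood ahead of Gbp2 and Gbp7 in both libraries. Irf8 had 33.1 CPM in the knockout, against 73.1 CPM in the wild type, with a log2 ratio of -1.12 (-1.32 to -0.92). Irf1 had 27.7 CPM in the knockout, against 51.5 CPM in the wild type, with a log2 ratio of -0.87 (-1.09 to -0.65). Iigp1 went the other way from large cells, with 22 UMIs (2.60 CPM, 1.63 to 3.94) in the knockout, against 63 UMIs (6.23 CPM, 4.79 to 7.97) in the wild type. Its log2 ratio was -1.01 (-1.56 to -0.44), from few UMIs and a mean below 5 CPM.

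The members also differed between the macrophage classes of a library. As a log2 ratio of small over large cells, Gbp7 stood at 0.33 (0.20 to 0.45) in the knockout and at 0.42 (0.27 to 0.56) in the wild type. Irf8 was level between the classes in the knockout, at -0.02 (-0.20 to 0.15), and higher in small cells of the wild type, at 0.33 (0.21 to 0.44). Iigp1 was lower in small cells of the knockout, at -1.39 (-1.85 to -0.92), and higher in those of the wild type, at 0.54 (0.19 to 0.88). Igtp and Irf1 were likewise higher in small cells of the wild type, at 0.37 (0.10 to 0.63) and 0.45 (0.32 to 0.59), while the knockout intervals of both included 0.

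Cycling cells, led by genes of DNA replication and mitosis, had all 9 ratios on the same side of 0 as large cells. They lay in different clusters, with 431 of 515 knockout cells in cluster 9, led by replication genes, and 219 of 352 wild type cells in cluster 10, led by mitotic genes. Cluster 10 also held 83 knockout cells. Gbp2 had 52.2 CPM in the knockout, against 24.8 CPM in the wild type, and within cluster 10 it had 47.4 CPM (39.1 to 56.9) in the knockout, against 21.8 CPM (17.9 to 26.3) in the wild type. Irf8 had 27.9 CPM in the knockout, against 54.6 CPM in the wild type, and within cluster 10 it had 38.7 CPM (31.2 to 47.4) in the knockout, against 60.9 CPM (54.2 to 68.2) in the wild type. For both genes the intervals in cluster 10 do not overlap. Igtp had 10.01 CPM in the knockout, against 6.80 CPM in the wild type, but 7.07 CPM (4.12 to 11.3) in the knockout, against 6.72 CPM (4.63 to 9.44) in the wild type, within cluster 10. Iigp1, with 22 wild type UMIs and a mean below 5 CPM, had 6.72 CPM in the knockout, against 2.82 CPM in the wild type, and within cluster 10 it had 4.16 CPM (1.99 to 7.65) in the knockout, against 3.67 CPM (2.17 to 5.80) in the wild type. For Igtp and Iigp1 the difference over all cycling cells was thus not seen within the cluster that both libraries share.

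Across large-macrophage-like clusters of at least 20 cells, 6 of the 9 genes had every knockout cluster above every wild type cluster, as did 23.7% of the 8441 genes, and 0 had every knockout cluster below, as did 3.23%. Clusters are cells of 1 library and no replicates. The 6 were Gbp2, Gbp3, Gbp5, Gbp7, Irgm1 and Iigp1. For Gbp5, Irgm1 and Iigp1 the counting intervals of the lowest knockout and the highest wild type cluster overlapped. For Gbp5 they were 6.97 to 9.66 CPM in cluster 4 and 6.995 to 8.91 CPM in cluster 0. For Irgm1 they were 12.8 to 15.5 CPM in cluster 1 and 8.15 to 15.95 CPM in cluster 11. For Iigp1 they were 4.39 to 6.57 CPM in cluster 4 and 2.39 to 7.35 CPM in cluster 11. These cluster levels are in CPM, without TMM. Gbp2 had 46.2, 82.9, 47.6, 67.7 and 47.99 CPM in knockout clusters 1, 3, 4, 7 and 12, and 27.8, 25.8, 27.4 and 25.7 CPM in wild type clusters 0, 2, 5 and 11. The knockout clusters were thus both higher and more spread than the wild type clusters.

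Cluster 3, with 1436 knockout cells, led by Crebrf, Abca6 and Abca1, was the high end for several members. Iigp1 had 5.85, 16.6, 5.40, 5.83 and 12.1 CPM in knockout clusters 1, 3, 4, 7 and 12, and 3.93, 3.95, 4.08 and 4.38 CPM in wild type clusters 0, 2, 5 and 11. The level of cluster 3 rested on few cells, and 1 cell held 65 of its 301 Iigp1 UMIs. In thinned cells Iigp1 was seen in 3.58% of cluster 3 cells (2.67% to 4.69%), against 2.67% of cluster 1 cells (1.97% to 3.53%). Cluster 12, the other high one for Iigp1, was led by the heat shock genes Hspa1a, Hspa1b and Hspb1, as was wild type cluster 11, which was not high. Gbp5 had 16.1 CPM in cluster 3, between 8.23 and 9.15 CPM in the other knockout clusters, and between 4.63 and 7.91 CPM in the wild type clusters. Gbp3, in contrast, was highest in cluster 7, at 124 CPM, a cluster led by Marco.

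Irf8 varied with the cluster more in the knockout than in the wild type. It had 24.4, 55.6, 27.6, 38.3 and 21.3 CPM in knockout clusters 1, 3, 4, 7 and 12, and 62.1, 48.6, 60.2 and 61.0 CPM in wild type clusters 0, 2, 5 and 11. Cluster 3 thus fell within the wild type range and the other knockout clusters lay below it. Irf1 had 22.4, 33.0, 21.3, 23.1 and 27.5 CPM in the same knockout clusters, and 43.3, 27.9, 37.7 and 30.03 CPM in the wild type clusters, and these ranges overlapped as well. Igtp, at 8.35 to 10.8 CPM in the knockout and 8.01 to 10.6 CPM in the wild type clusters, overlapped almost fully.

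Without cluster 3, a choice made after these values were seen, Iigp1 stood at 6.05 CPM in knockout cells, against 3.98 CPM in wild type cells, with a log2 ratio of 0.50. Irf8 then stood at 27.2 CPM in knockout cells, against 58.0 CPM in wild type cells, with a log2 ratio of -1.07. The median depth of cluster 3 was 12061.5 UMIs. It was the lowest among knockout large-macrophage-like clusters of at least 20 cells, the others of which lay between 15985.5 and 18455 UMIs. Cluster 1 had Hdc, from the mast cell list, among its 10 leading genes. No large-macrophage-like cluster of either library had a large macrophage marker among its 10 leading genes. Without cluster 1 Irf8 stood at 39.3 CPM in knockout cells, against 58.0 CPM in wild type cells, and its log2 ratio of -0.55 was short of 1.5-fold. The direction of the 9 ratios was the same with and without cluster 1, 3 or 15.

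**Figure D3:**
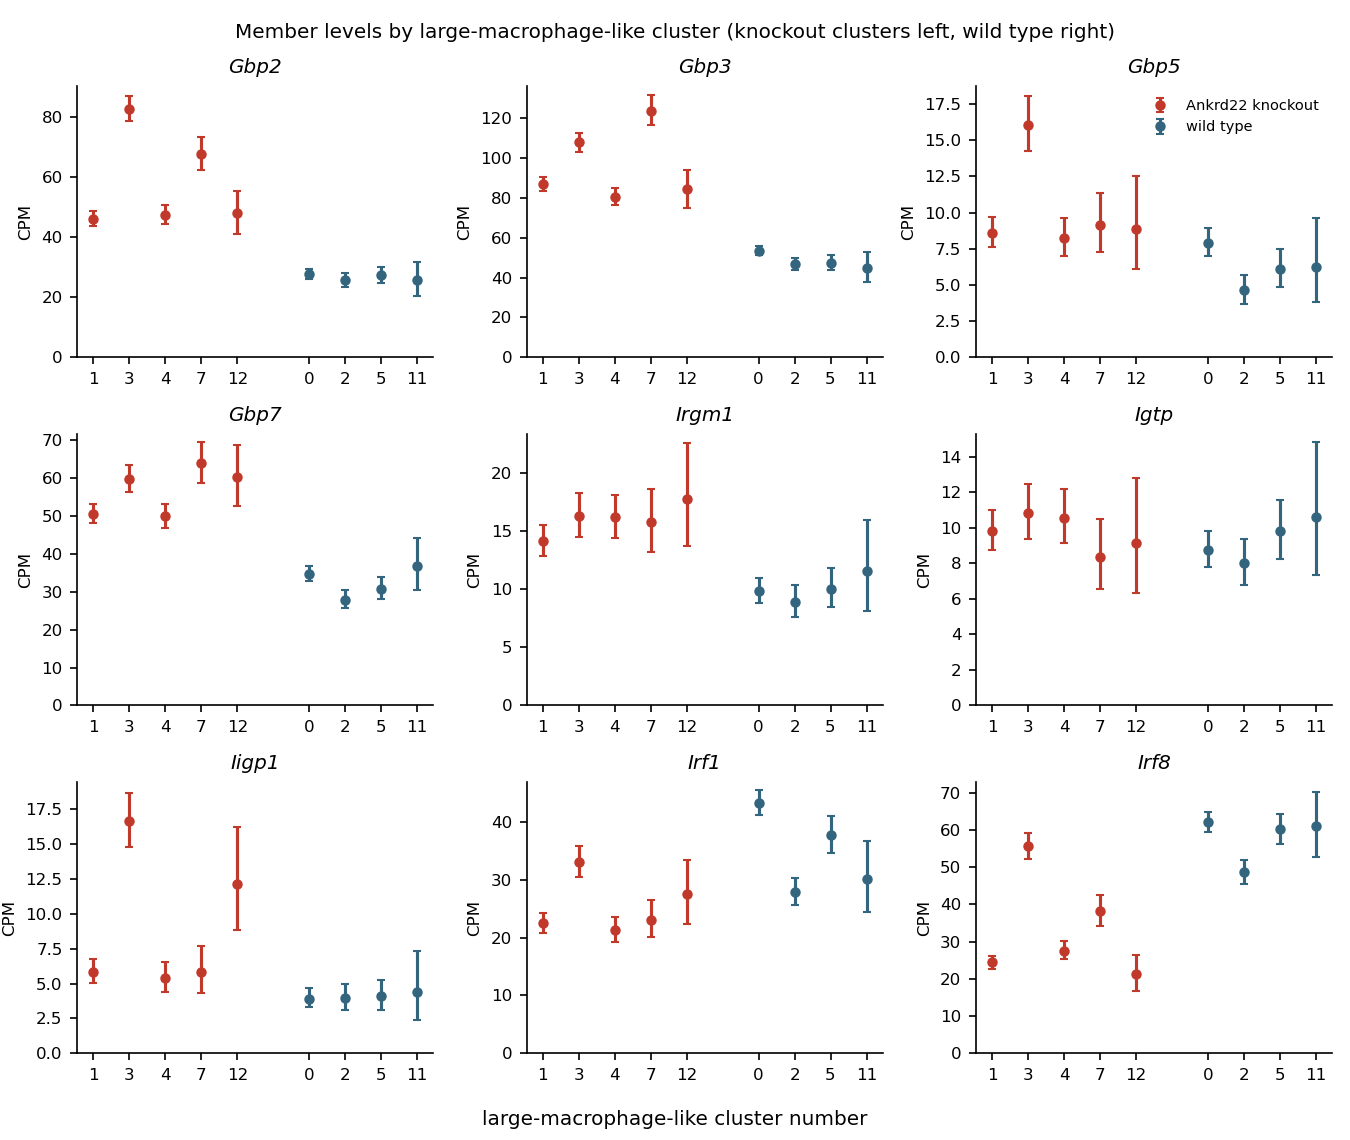
Level of each member in CPM (y axes, starting at 0) in each large-macrophage-like cluster of at least 20 cells (x axes, cluster number), with the 5 knockout clusters in red on the left and the 4 wild type clusters in blue on the right; bars are exact Poisson intervals for counting error. For Gbp2, Gbp3, Gbp5, Gbp7, Irgm1 and Iigp1 all red points lie above all blue ones, and in the panel of Irf8 cluster 3 (55.6 CPM) lies among the blue points. For Gbp5, Irgm1 and Iigp1 the bars of some red and blue points overlap.

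Few pairs of members were seen in the same cell at least 1.5 times as often as the product of their shares. In thinned large-macrophage-like cells, the number of cells with both members was set against the product of their shares, for 36 pairs in each library. In the knockout 6 pairs, and in the wild type 5, were seen together at least 1.5 times as often as the product. The share of other gene pairs past this mark is not given here, so the counts do not set these genes apart. The knockout count also changed with the thinning depth, as given in the last section. Clusters with unlike levels were pooled, and the part of this in the joint counts was not tested. Over all pairs the median was 1.13 for knockout cells and 1.16 for wild type cells. Of the 6 knockout pairs 5 held Iigp1 and of the 5 wild type pairs 3 did. The highest in both libraries was Gbp5 with Iigp1, seen together in 20 knockout cells (counting interval 12.2 to 30.9) where the product gave 6.57, and in 5 wild type cells (1.62 to 11.7) where it gave 2.17. The wild type interval includes the product, so an excess was not detectable there at this depth.

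Igtp with Iigp1, regulator and effector, were seen together in 17 knockout cells (9.90 to 27.2) against a product of 7.07, and in 7 wild type cells (2.81 to 14.4) against 3.21. Irf1 with Iigp1 were seen in 29 knockout cells (19.4 to 41.6) where the product gave 15.7, and in 17 wild type cells (9.90 to 27.2) where it gave 10.6. For both of these pairs the wild type interval again includes the product. Irgm1 with Igtp, both regulators, were the 1 wild type pair past 1.5 whose interval lay above the product, with 17 wild type cells (9.90 to 27.2) against 9.55. In the knockout they were seen in 22 cells (13.8 to 33.3) against 16.2, a ratio of 1.36. Gbp5 with Igtp had ratios of 1.64 for knockout and 1.57 for wild type cells, with the product inside both intervals. The abundant GBPs lay closer in ratio to the product of their shares. Gbp2 with Gbp3 were seen together in 421 knockout cells (382 to 463) against 376, a ratio of 1.12. In the wild type they were seen together in 148 cells (125 to 174) against 113, a ratio of 1.31. Both of these intervals lay above the product. For Gbp3 with Gbp7 the interval lay above the product in the wild type alone. For Gbp2 with Gbp7 it included the product in both libraries. Pairs with Irf8 lay between 0.83 and 1.10 with a GTPase other than Gbp5 in the knockout, at 1.14 with Gbp5, and between 0.91 and 1.22 with the GTPases in the wild type.

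**Figure D4:**
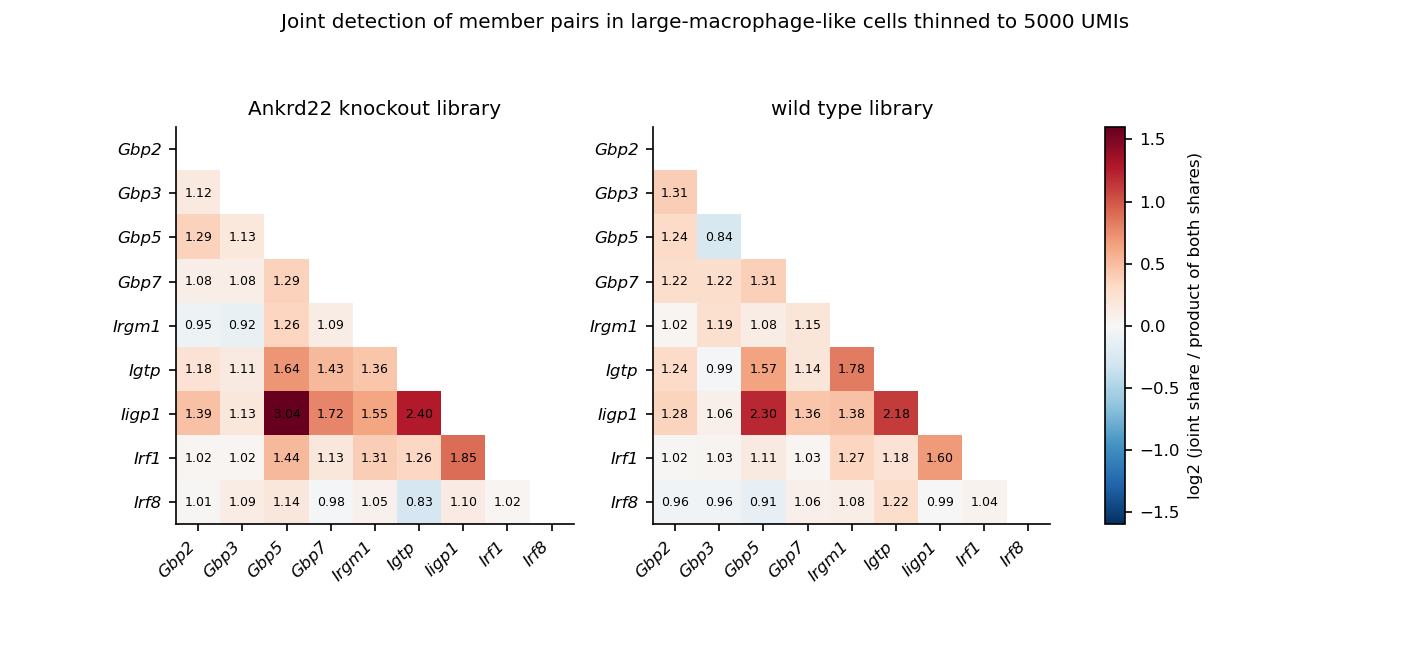
Joint share of each pair of members over the product of their shares (number in each square; colour on a log2 scale) in large-macrophage-like cells thinned to 5000 UMIs, 4906 in the knockout library (left) and 4622 in the wild type library (right). The highest square is that of Gbp5 with Iigp1, at 3.04 for knockout and 2.30 for wild type cells, Irgm1 with Igtp reach 1.78 in the wild type panel, and the row of Irf8 is pale.

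The number of GTPases seen in 1 cell was shifted upward in the knockout library. After thinning, none of the 7 was seen in 34.5% of knockout cells, against 54.0% of wild type cells. Exactly 1 was seen in 40.1% of knockout cells, against 34.1% of wild type cells, exactly 2 in 19.4% of knockout cells, against 10.02% of wild type cells, and exactly 3 in 5.06% of knockout cells, against 1.62% of wild type cells. Cells with 4 or more numbered 45 of 4906 in the knockout (0.917%, exact binomial interval 0.670% to 1.23%), against 13 of 4622 in the wild type (0.281%, 0.1498% to 0.480%). Of these cells, 23 of the 45 lay in cluster 3, where they made up 1.65% of cells, against 0.397% in cluster 1. They were not deep cells, with medians of 13960 UMIs in the 45 knockout cells and 13072 UMIs in the 13 wild type cells.

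The UMIs of Iigp1 lay in few cells. The 1% of large-macrophage-like cells with the most Iigp1 UMIs held 44.4% of them among knockout cells and 41.7% among wild type cells. For the GTPases nearest to it in level, the top 1% of cells held less. They held 18.1% of the Gbp5 UMIs among knockout cells and 25.2% among wild type cells, and 17.0% of the Igtp UMIs among knockout cells and 18.2% among wild type cells. In thinned cells Iigp1 had a ratio of variance to mean of 4.84 among knockout cells, with at most 24 UMIs in a cell, and of 1.40 among wild type cells, with at most 4. The knockout cell with the highest GTPase share, in cluster 3, had 65 UMIs of Iigp1, 46 of Gbp2, 17 of Irgm1 and 16 of Gbp7 among 11856 UMIs, or 152 GTPase UMIs per 10000. The highest wild type cell reached 23.0 per 10000, and the median cell had 2.08 per 10000 among knockout cells and 1.10 per 10000 among wild type cells. The 45 knockout cells held 28.4% of the Iigp1 UMIs of their library. Without these 45 cells and the 13 wild type ones, Iigp1 stood at 6.08 CPM in knockout cells, against 3.58 CPM in wild type cells, with a log2 ratio of 0.63.

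Other interferon genes, which did not choose these cells, were set beside the rest of the thinned large cells of the same library, as a description made after the cells had been seen. Among the 8441 measured genes, 4.29% had a counting interval in the 45 knockout cells above that of the other cells and 3.73% one below, and in the 13 wild type cells 3% had one above and 1.14% one below. Of 17 other interferon gamma targets that were measured, 9 had an interval above in the knockout cells and 4 in the wild type cells. Of 5 other IRGs, 5 did in the knockout cells and 5 in the wild type cells, among them Irgm2, whose gene model overlaps Igtp. Of 13 genes of the type I interferon response, 8 did in the knockout cells and 6 in the wild type cells. Of 9 genes of the receptor and its signalling, 1 did in each library. None of these genes had an interval below. Igtp helped to choose the cells and its split of reads with Irgm2 is uncertain, so Irgm2 is not independent of the choice. The libraries are not compared here, since 45 cells give narrower intervals than 13. Irf1 and Irf8 were also not used to choose the cells. Irf1 was at 122 CPM in the 45 knockout cells, against 24.2 CPM in the other knockout cells. In the 13 wild type cells it was at 120.3 CPM, against 36.9 CPM in the others. Irf8 was at 78.4 CPM in the 45 knockout cells, against 33.1 CPM in the others. In the 13 wild type cells it was at 172 CPM, against 57.7 CPM in the others. UMIs of Irf1 lay in 16 of the 45 and 8 of the 13 cells, and those of Irf8 in 14 and 7.

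**Figure D5:**
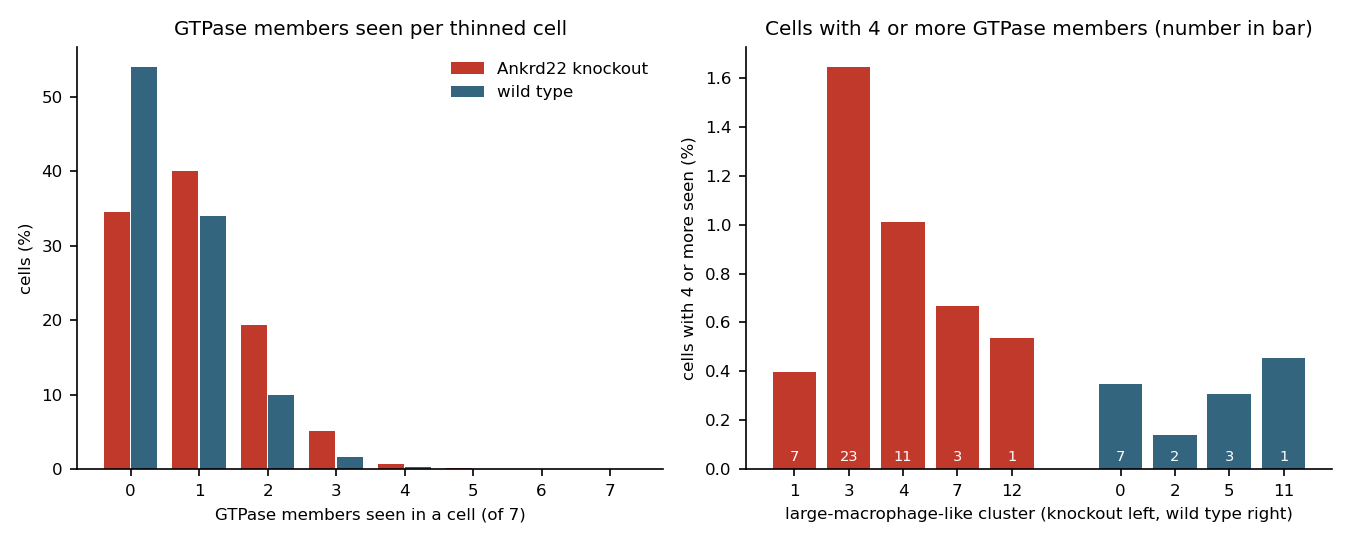
Left, share of thinned large-macrophage-like cells (y axis, %) by the number of the 7 GTPases seen in the cell (x axis), knockout in red left of wild type in blue; right, share of cells with 4 or more of them (y axis, %) in each large-macrophage-like cluster, with their number in the bar. The knockout library has fewer cells with none (34.5% against 54.0%), and cluster 3 has the highest share of cells with 4 or more (1.65%).

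Set beside them, the receptor and its signalling genes lay near the median of all genes. Of 10 such genes 9 were measured in large-macrophage-like cells, and 0 passed 1.5-fold in either direction, with a median log2 ratio of 0.16 against 0.20 for all genes. Jak1, the kinase bound to Ifngr1, had 142 CPM in knockout cells, against 105 CPM in wild type cells, with a log2 ratio of 0.43 (0.39 to 0.48). Socs3, which restrains cytokine signals, had 89.4 CPM in knockout cells, against 132 CPM in wild type cells, with a log2 ratio of -0.56 (-0.60 to -0.51).

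Few of the other interferon gamma targets passed 1.5-fold. Of 26 such genes 17 were measured, of which 0 were higher and 1 lower by 1.5-fold, with a median log2 ratio of 0.12. The lower one was the chemokine gene Cxcl10, named after its values were seen, with 31 UMIs (0.384 CPM) in knockout cells, against 749 UMIs (10.5 CPM) in wild type cells. Tapbp and Casp4 lay short of 1.5-fold. Tapbp, which helps load peptides on MHC class I, had 119.7 CPM in knockout cells, against 173 CPM in wild type cells. Casp4, a sensor of cytosolic endotoxin, had 27.4 CPM in knockout cells, against 41.1 CPM in wild type cells.

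Most measured relatives of the GTPases had log2 ratios above 0 in CPM, as did most of the 8441 measured genes, whose median was 0.20. These values come before the downward shift of about 0.27 that TMM or median-of-ratios scaling gives. Of 7 other GBPs only Gbp2b, the mouse Gbp1 gene, was measured, with 335 CPM in knockout cells, against 179.7 CPM in wild type cells, and a log2 ratio of 0.90 (0.87 to 0.93). In small-macrophage-like cells its log2 ratio was -0.02. Of 11 other IRGs 5 were measured, with 1 higher, 0 lower and a median log2 ratio of 0.44. The higher one was the IRG-like gene 9930111J21Rik2, with 137 CPM in knockout cells, against 55.7 CPM in wild type cells, and a log2 ratio of 1.29 (1.23 to 1.34). Of 14 genes for loading GTPases on vacuoles and for autophagy conjugation all 14 were measured, with 1 higher and 0 lower. Their median log2 ratio of 0.29 was near the 0.20 of all measured genes. Map1lc3a, which marks autophagic membranes, had 116 CPM in knockout cells, against 84.0 CPM in wild type cells.

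Among 10 other IRF genes and IRF2-binding genes, 9 were measured, 1 was higher and 1 lower by 1.5-fold, and the median log2 ratio was 0.27. The lower one was Irf2bp2, a corepressor that works with IRF2, at 122 CPM in knockout cells, against 265 CPM in wild type cells, with a log2 ratio of -1.12 (-1.15 to -1.08). Irf9, which acts in type I interferon signalling, had 29.2 CPM in knockout cells, against 22.2 CPM in wild type cells. Of 10 factors that pair with IRF8 or IRF1 in myeloid cells, all were measured and 3 were lower, with 0 higher and a median log2 ratio of 0.22. Cebpb, a factor of macrophage differentiation and inflammation, had 1671 CPM in knockout cells, against 2704 CPM in wild type cells, with a log2 ratio of -0.69 (-0.70 to -0.68). Klf4, which acts in monocyte differentiation, had 149 CPM in knockout cells, against 257 CPM in wild type cells, with a log2 ratio of -0.79 (-0.82 to -0.76). Klf4 is also on the list of immediate early genes below and is counted as lower in both lists. Zeb2, a regulator of macrophage identity, lay on the other side of 0, with 539.8 CPM in knockout cells, against 389.9 CPM in wild type cells.

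In large-macrophage-like cells the medians of type I interferon genes and immediate early genes were of opposite sign. Of 22 type I interferon genes 13 were measured, with 1 higher, 0 lower and a median log2 ratio of 0.39. Parp14 had 43.1 CPM in knockout cells, against 19.97 CPM in wild type cells, with a log2 ratio of 1.07 (0.99 to 1.16). Ifi27l2a had 215 CPM in knockout cells, against 318 CPM in wild type cells, with a log2 ratio of -0.57 (-0.59 to -0.54). Of 20 immediate early genes, which are switched on within minutes of a stimulus or of cell handling, 9 were lower and 0 higher, and the median log2 ratio was -0.57. Atf3 had 91.9 CPM in knockout cells, against 444 CPM in wild type cells, and Dusp1 had 1004 CPM in knockout cells, against 2748 CPM in wild type cells. Their part in the lower levels of Irf1 and Irf8 was not tested. In small-macrophage-like cells both medians were below 0, at -0.20 for the type I interferon genes and -0.78 for the immediate early genes.

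Genes of like pattern were sought over thinned large-macrophage-like cells by the lower of both libraries' Pearson r, among 6144 genes for the GTPase sum, as a description over cells that share a library. All values were weak. Genes named for the GTPase sum had a lower r between 0.0599 and 0.0854, and were Gm42418, Samhd1, Tent5a, Ahnak, B2m, Diaph1, Parp14, Fn1 and Ypel2. For Irf1 the 3 were Nfkbia, Zfp36 and Fcgrt, with a lower r between 0.0486 and 0.0585, and for Irf8 they were Selenop, Apoe and C3ar1, between 0.0608 and 0.0896. Gm42418, which ranked first for the GTPase sum, overlaps ribosomal RNA sequence and its level can follow library quality. It had 3145 CPM in knockout cells, against 1395 CPM in wild type cells, with a log2 ratio of 1.17. The part of library quality in the GTPase ratios was not tested. Nfkbia, the inhibitor of NF-kappa-B, had 434 CPM in knockout cells, against 1167 CPM in wild type cells, with a log2 ratio of -1.42.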

How the data were processed

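The authors deposited, for each library, a table of raw UMI counts of every feature in every called cell; its header names Cell Ranger 6.1.2. The submitters' processing notes also name bcl2fastq, Seurat 4.1.0 and mm9. The identifiers of all 55450 features occur in GENCODE release 21 (GRCm38), whose positions are used here. Promoters came from RefSeq.

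Cells needed at least 500 genes and at most 10% of UMIs from mitochondrial genes. Scrublet called 1 barcode in each library by its automatic threshold, 0.0157% and 0.0160%, so the highest scores were removed at 0.8% per 1000 barcodes, 324 knockout (5.09%) and 313 wild type barcodes (5.00%). Leiden clustering at resolution 1 used 2000 variable genes, 30 components and 15 neighbours, without integration. Classes needed 3 markers at 2-fold and 10% of cells; other clusters were called large-macrophage-like with 3 of that class's markers in 25% of cells. UMIs were summed per class and library and scaled to CPM. Ratios have 1 CPM added and exact conditional binomial intervals. The 9 genes and the 9 gene lists were chosen with earlier results of these data known. All 9 genes are named; of each list, up to 4 genes with a mean of at least 20 CPM and the largest absolute ratio were open to naming. The values of 1 gene that these rules name are not reported here. The ratio code was tested on simulated counts. Alternatives covered scaling, pseudocount, filters, doublets, clustering and thinning. The seed was 0. Tools were Python 3.11.15, scanpy 1.11.5, R 4.3.3, edgeR 4.0.16 (TMM) and DESeq2 1.42.0 (size factors alone).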

Additional observations from a re-analysis of the deposited data

Results flagged for a closer look

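Iigp1 and Igtp had ratios of opposite sign in the 2 macrophage classes. The log2 ratio of knockout over wild type for Iigp1 was 0.92 in large-macrophage-like and -1.01 in small-macrophage-like cells, a difference of 1.93, where the small-cell value rested on 22 knockout and 63 wild type UMIs. For Igtp it was 0.16 in large and -0.19 (-0.57 to 0.19) in small cells, a difference of 0.35, and its sign in large cells turned with the scaling. Neither difference was tested, since each class had 1 library per genotype.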

How the results depend on the processing

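No paired analysis was possible because each genotype had 1 library. In large-macrophage-like cells, TMM and median-of-ratios scaling gave 3 members higher and 2 lower, medians of 0.35 and 0.35 and Igtp at -0.10 and -0.10. There 2 members were lower with all cells kept, without cluster 3 and without the GTPase-rich cells, and 0 without cluster 1; the last 3, and leaving out cluster 15, were chosen after seeing the data. In small-macrophage-like cells 0 were higher under TMM and 0 under median-of-ratios scaling, and 1 at Leiden resolution 0.5. The small class itself changed with the setting. It held 459 knockout and 640 wild type cells in the main setting and 451 and 487 at Leiden resolution 2. With a mitochondrial limit of 5% it held 245 and 1337. Shares of all genes under these settings are not given beside the counts. Knockout pairs at 1.5 times numbered 13 at 2000 UMIs and 3 without thinning. Gbp2 and Gbp3 were at least 1.5-fold higher under 15 of 15 settings, Iigp1 under 14, Gbp7 under 13, Irgm1 under 11 and Gbp5 under 7. Depth limits Iigp1 in small cells and the rarer pairs. The cause of these shifts was not tested.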
